A study of Mus musculus with 24 samples.

Results

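The ERK kinase gene Mapk3 and 8 genes for inhibitors that hold ERK signalling in check were followed in the mouse hippocampus after fear conditioning. In the paper's training a tone was paired with foot shock in a conditioning chamber. The members were taken by symbol from the table of counts per gene, namely Mapk3, Dusp1, Dusp4, Dusp5, Dusp6, Spry1, Spry2, Spry4 and Spred1, 9 of the 47593 genes listed. RNA sequencing was done on whole hippocampi of male C57BL/6J mice, 8 to 12 weeks old, in 8 groups of 3. WT mice and Tob-KO mice, in which the gene for TOB, an ERK substrate, was knocked out, were either left without conditioning (naive) or killed at 15 min, 1 h or 3 h after it. The sources used here do not give the part of Tob1 that the knockout removes, and against naive mice the shock, the tone, the new context and handling cannot be told apart. The Tob1 gene, which should check the labels, was at 33.9 to 44.5 CPM, the count scaled to the size of its library, in the 12 WT libraries and at 52.1 to 68.3 CPM in the 12 libraries labelled Tob-KO. Its level was thus higher in every library labelled Tob-KO (log2 difference 0.56, SE 0.035, adjusted p = 4.16e-09), which goes against that label if the counted reads come from the deleted part. A count over the whole gene does not check a deletion that leaves the transcript in place. Every direction given below for Tob-KO rests on the labels.

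The ERK kinases, of which ERK1 is the protein of Mapk3, are the last of a relay in which Ras activates Raf, Raf activates MEK and MEK phosphorylates ERK. Active ERK enters the nucleus and induces immediate early genes, and in hippocampal neurons this relay is needed for lasting synaptic change and for contextual fear memory. ERK signalling is switched off by proteins whose genes it induces itself. Dual-specificity phosphatases (Dusp) take the phosphates off ERK, and Sprouty (Spry) and Spred proteins act above ERK, between the receptor and Raf. Transcript levels do not measure the activity of any of these proteins.

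Depth was between 28847989 and 41595972 counts per library, and each of the 9 genes passed the filter on low values, the scarcest being Spry1 with 268 to 483 reads per library. Markers of hippocampal excitatory neurons were high in each library, summing to 2655 to 3336 CPM over 12 genes. Markers of choroid plexus were uneven between libraries, and these 15 genes summed to 200.2 to 237.6 CPM in the WT 15 min libraries, to 3416 to 5120 CPM in the Tob-KO 1 h libraries and to between 215.3 and 7435 CPM elsewhere. The 11 markers of brain endothelium and mural cells stood higher at 15 min (321.6 to 440.3 CPM) than in naive mice (236.0 to 317.1 CPM). No marker of these lists was at 0 in any library. In whole tissue, a change in the number of cells of a type and a change in RNA per cell cannot be told apart.

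Promoter sequence is shown for Dusp1, Dusp5 and Dusp6, whose rises over naive, described below, passed the test at different time points. The sequences are RefSeq's on GRCm38.p6, the 250 bases before the annotated start site, 5′ to 3′ on the strand of the gene. They cover chr17:26508473-26508722 on the minus strand for Dusp1, chr19:53528895-53529144 on the plus strand for Dusp5 and chr10:99262981-99263230 on the plus strand for Dusp6. Capitals mark a cAMP response element (CRE, TGACGTCA), its shorter core (TGACG, or CGTCA on the other strand) or a CArG box, the element that serum response factor binds.
Dusp1 promoter: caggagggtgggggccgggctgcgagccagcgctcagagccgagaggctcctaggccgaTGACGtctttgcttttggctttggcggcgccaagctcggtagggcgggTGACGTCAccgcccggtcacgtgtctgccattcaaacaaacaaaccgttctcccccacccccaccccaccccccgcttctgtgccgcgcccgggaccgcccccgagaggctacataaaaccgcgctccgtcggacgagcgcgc
Dusp5 promoter: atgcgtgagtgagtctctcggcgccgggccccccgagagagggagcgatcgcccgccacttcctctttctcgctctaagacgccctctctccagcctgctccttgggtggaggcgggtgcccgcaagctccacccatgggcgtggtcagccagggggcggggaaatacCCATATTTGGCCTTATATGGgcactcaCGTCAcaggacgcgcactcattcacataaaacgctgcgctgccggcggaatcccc
Dusp6 promoter: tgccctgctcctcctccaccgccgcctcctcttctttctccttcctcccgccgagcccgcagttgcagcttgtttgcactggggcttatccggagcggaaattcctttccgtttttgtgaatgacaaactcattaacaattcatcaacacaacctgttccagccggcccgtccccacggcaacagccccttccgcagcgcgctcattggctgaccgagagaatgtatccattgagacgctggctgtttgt

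Letters were searched in the 300-base windows that run on to 50 bases after the start site. Both strands were searched, except for TATAAA, which was searched on the strand of the gene only. Windows were found for 6 of the 9 genes (Dusp1, Dusp5, Dusp6, Spry1, Spry2 and Spred1) and not for Mapk3, Dusp4 and Spry4. Dusp1 held a full CRE whose first base lies at position -143 from the start site, and a further core at -191. A full CRE stood in 1.79% of all 32851 windows and a core, which every full CRE contains, in 20.8%. Dusp5 held 2 CArG boxes side by side, beginning at -82 and -72, and a core at -55, whereas 1.63% of all windows held a CArG box. Dusp6, Spry1 and Spred1 held none of the letters searched. The AP-1 site (TGANTCA, in 7.81% of windows), the EGR site (GCGNGGGCG, in 5.55%) and the letters TATAAA (in 8.32%) were in none of the 6 windows, and the ETS core (CCGGAA, in 14.9%) was in Spry2 alone, at 34 bases after the start. These matches describe letters in a window and were not linked to binding.

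The most abundant transcript of the 9 was that of the kinase. Per kilobase of exon, over the 24 libraries, the mean level was 52.1 CPM for Mapk3, 29.0 for Spred1, 21.6 for Spry2, 17.7 for Dusp6, 9.86 for Dusp5, 9.71 for Dusp4, 7.45 for Dusp1, 4.05 for Spry1 and 3.97 for Spry4. The value of Dusp1 divides by an annotated model of 3311 exonic bases that runs over chr17:26505590-26562128, far upstream of the promoter above, and overlaps Ergic1 on the other strand by 640 bases. Dusp5 shares 547 bases with an antisense gene, AC137853.2, and Spry1 shares 710 with Gm42922, so that their values are uncertain as far as the counting, whose strand setting is not given in the sources used here, mixed strands.

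Averaged over both genotypes, conditioning was followed by a rise of 5 of the 8 inhibitor genes. No member was called against naive at 3 h, nor was any other gene. Dusp1, Dusp6 and Spry4 had risen at 15 min (as had 1.6% of all genes), and Dusp4, Dusp5, Dusp6 and Spry4 at 1 h (2.36%). Dusp4 passed only narrowly (adjusted p = 0.0490 in the test named below). Between 1 h and 3 h Dusp1, Dusp5, Dusp6 and Spry4 fell (1.98% of all genes). Mapk3, Spry1, Spry2 and Spred1 were called at no time point in this fit. A gene was called at an adjusted p of 0.05 or less in edgeR's quasi-likelihood test over 19500 genes, with no limit on fold. The plot of levels by library shows all 24 values of each gene.

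**Figure D1:**
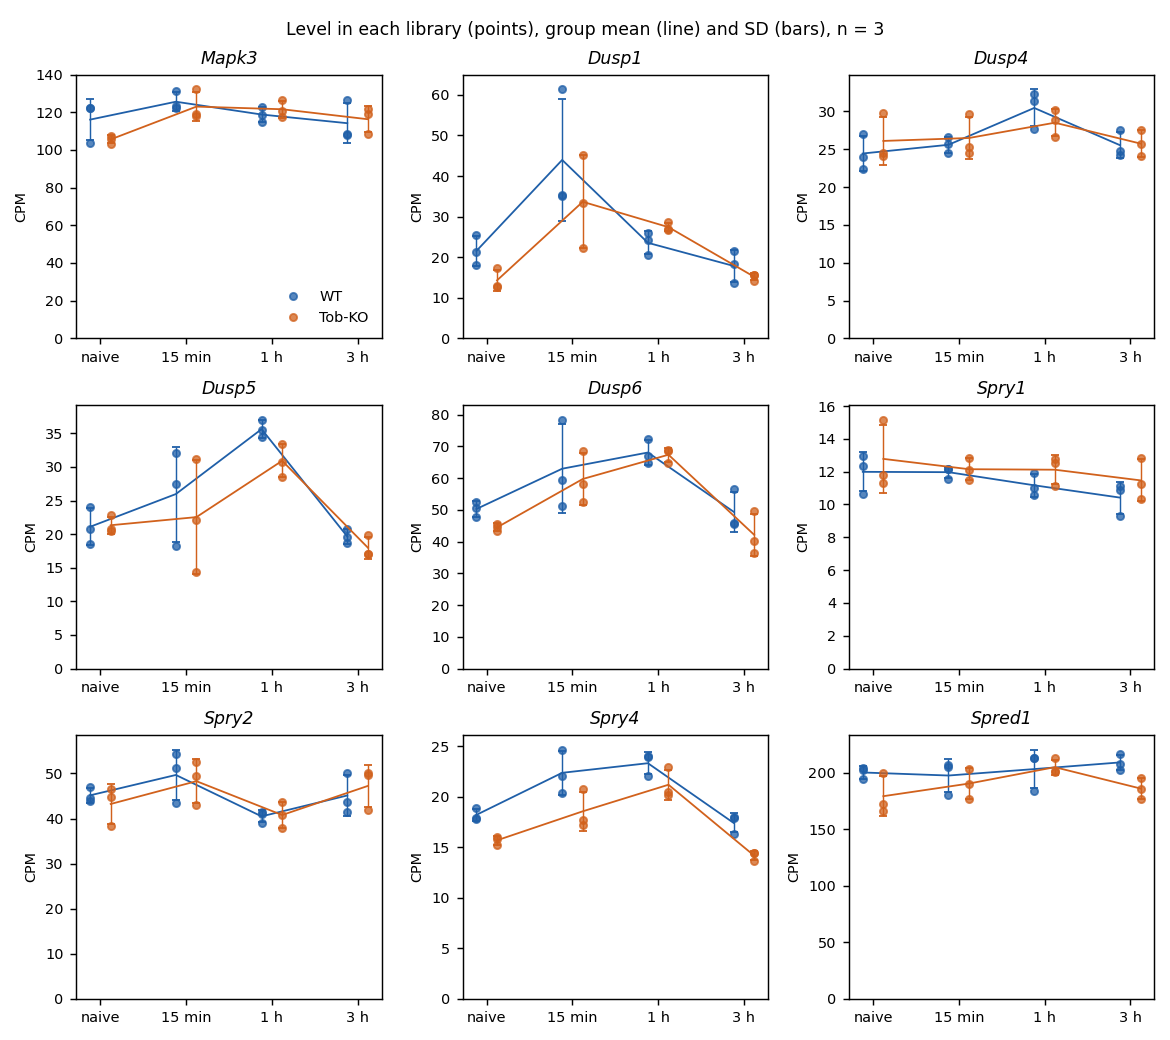
Level of each of the 9 genes (vertical axis, CPM after TMM scaling, starting at 0) by time point (horizontal axis), with 1 point per library, the line through group means and bars of 1 SD (n = 3), WT in blue and Tob-KO in orange. The means of Dusp1 are highest at 15 min, with a spread from 22.3 to 61.3 CPM, and those of Dusp5 at 1 h, with 28.6 to 37.0 CPM. Spry1 and Spred1 run nearly level, and the group mean of Mapk3 is lowest in naive Tob-KO mice.

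Dusp1 encodes MKP-1, a nuclear phosphatase that also acts on p38 and JNK and whose gene is itself an immediate early gene. In WT mice its level was 25.4, 18.1 and 21.2 CPM when naive, 61.3, 35.4 and 35.1 at 15 min, 24.2, 26.0 and 20.5 at 1 h and 18.4, 13.7 and 21.5 at 3 h. In the libraries labelled Tob-KO it was 12.7, 12.9 and 17.3 CPM when naive, 45.3, 22.3 and 33.4 at 15 min, 26.7, 28.6 and 26.9 at 1 h and 15.6, 14.2 and 15.7 at 3 h. Within each genotype all 3 libraries at 15 min lay above all 3 naive ones (as for 10.6% of all genes in WT and 19.2% in Tob-KO), while over both genotypes the groups overlapped through 1 Tob-KO library at 22.3 CPM. At 15 min Dusp1 had risen 2.19-fold (log2 fold change 1.13, SE 0.16, adjusted p = 0.000556), the steepest rise of the 9. At 1 h its mean was still 1.45-fold above naive, which just missed the threshold (adjusted p = 0.0529) and passed it under several other settings, and the step down from 15 min to 1 h was not called either (log2 fold change -0.60, adjusted p = 0.0897). From 1 h to 3 h it fell by 0.63 on the log2 scale (SE 0.16, adjusted p = 0.0336), a call that was lost in 10 of the 12 fits that left out 1 library (highest adjusted p = 0.0952).

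Dusp5 encodes a nuclear phosphatase that is selective for ERK, and its mean was highest at 1 h. The step from 15 min to 1 h was not called (log2 fold change 0.46, SE 0.14, adjusted p = 0.129). Its naive level was 18.5, 23.999 and 20.8 CPM in WT and 22.8, 20.8 and 20.4 in Tob-KO. At 15 min the libraries were spread widely, with 32.1, 18.3 and 27.5 CPM in WT and 31.2, 22.1 and 14.3 in Tob-KO. At 1 h they drew together at 37.0, 35.5 and 34.4 CPM in WT and 33.5, 30.8 and 28.6 in Tob-KO, all above all naive values. Dusp5 was 1.57-fold above naive at 1 h (log2 fold change 0.65, SE 0.14, adjusted p = 0.00800) and was not called at 15 min (0.19, SE 0.14, adjusted p = 0.467). At 3 h it was back at 18.7, 19.5 and 20.8 CPM in WT and 17.0, 17.1 and 19.9 in Tob-KO, a fall by 0.82 on the log2 scale from 1 h (SE 0.14, adjusted p = 0.00224).

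Dusp6 encodes MKP-3, a phosphatase of the cytoplasm that is selective for ERK. Naive levels were tight, at 50.5, 52.6 and 47.8 CPM in WT and 44.5, 45.7 and 43.2 in Tob-KO. Levels at 15 min were 78.5, 51.2 and 59.4 CPM in WT and 68.6, 58.2 and 52.5 in Tob-KO, so that 1 library of each genotype lay below the highest naive one. At 1 h they were 64.9, 72.5 and 66.9 CPM in WT and 68.9, 68.5 and 64.9 in Tob-KO, clear of every naive library. Dusp6 thus rose 1.30-fold by 15 min (log2 fold change 0.37, SE 0.089, adjusted p = 0.0205) and stood 1.43-fold above naive at 1 h (0.52, SE 0.089, adjusted p = 0.00240). It returned to 45.7, 45.9 and 56.7 CPM in WT and 36.6, 49.6 and 40.3 in Tob-KO at 3 h, a fall by 0.57 on the log2 scale (SE 0.089, adjusted p = 0.00144). The call at 15 min was lost without WT naive replicate 3 (adjusted p = 0.0580) and without Tob-KO 15 min replicate 1 (adjusted p = 0.0549).

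Dusp4 encodes MKP-2, a nuclear phosphatase of ERK and JNK. It changed least among the phosphatases, from 22.4, 27.0 and 23.95 CPM in naive WT and 29.8, 24.1 and 24.5 in naive Tob-KO to 31.4, 32.3 and 27.7 in WT and 30.1, 28.84 and 26.6 in Tob-KO at 1 h. These groups overlapped. The 1 h value was 1.17-fold above naive (log2 fold change 0.22, SE 0.066, adjusted p = 0.0490), and this call was lost in 8 of the 12 fits that left out 1 library (highest adjusted p = 0.115). Levels at 15 min and 3 h were 24.1 to 29.7 CPM, and neither time was called against naive.

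Spry4, a Sprouty protein that dampens receptor signalling upstream of Raf, had the lowest adjusted p of the 9 genes at 1 h. Naive levels were 17.9, 17.8 and 18.9 CPM in WT and 15.2, 16.1 and 15.8 in Tob-KO. The 15 min values were 24.6, 22.1 and 20.4 CPM for WT and 20.8, 17.2 and 17.7 for Tob-KO, and the 1 h values 22.1, 23.88 and 23.98 for WT and 20.2, 22.9 and 20.5 for Tob-KO. Every 1 h library was above every naive one, whereas at 15 min 2 Tob-KO libraries lay below naive WT values. Spry4 rose 1.21-fold by 15 min (log2 fold change 0.27, SE 0.056, adjusted p = 0.00998) and 1.32-fold by 1 h (0.40, SE 0.056, adjusted p = 0.000510). Its 3 h values were 18.0, 16.3 and 17.9 CPM for WT and 14.4, 14.5 and 13.6 for Tob-KO, a fall by 0.50 on the log2 scale from 1 h (SE 0.056, adjusted p = 0.000144).

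None of the other Sprouty and Spred genes was called at any time in this fit. The level of Spry2 was 43.5 to 54.3 CPM in WT and 43.0 to 52.4 in Tob-KO at 15 min against 38.9 to 41.4 in WT and 37.8 to 43.8 in Tob-KO at 1 h. That step was not called (log2 fold change -0.27, SE 0.068, adjusted p = 0.0792), although it was without the filter on low counts and with DESeq2, nor was either time against naive (43.9 to 47.0 CPM in WT and 38.3 to 46.7 in Tob-KO). Spry1 stayed between 9.31 and 15.2 CPM and Spred1, a Ras-pathway inhibitor at the membrane, between 166.4 and 216.8 CPM over all libraries, and their largest changes from naive were -0.18 for Spry1 at 3 h (SE 0.078, adjusted p = 0.513) and 0.11 for Spred1 at 1 h (SE 0.050, adjusted p = 0.237).

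The kinase gene itself was not called at any time in this fit, but at 15 min its call depended on the setting. Mapk3 was at 122.5, 103.5 and 122.2 CPM in naive WT and 103.3, 106.0 and 107.5 in naive Tob-KO, and at 122.1, 131.2 and 123.5 in WT and 119.1, 117.9 and 132.1 in Tob-KO at 15 min. Over both genotypes the naive and 15 min libraries overlapped, and the later ones were at 107.8 to 126.6 CPM. Within Tob-KO all Mapk3 values at each later time lay above all naive ones, whereas within WT they overlapped at each time. Of all genes, 19.2% did not overlap with naive in Tob-KO at 15 min, 20.8% at 1 h and 14.9% at 3 h. The difference at 15 min, 1.12-fold, narrowly missed the threshold (log2 fold change 0.17, SE 0.048, adjusted p = 0.0509) and the 95% interval ran from 0.07 to 0.27. With RLE scaling, without the filter on low counts, with the choroid plexus score as a covariate, with DESeq2, without WT naive replicate 1 or without Tob-KO 15 min replicate 2, Mapk3 passed and 4 members were called at 15 min.

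**Figure D2:**
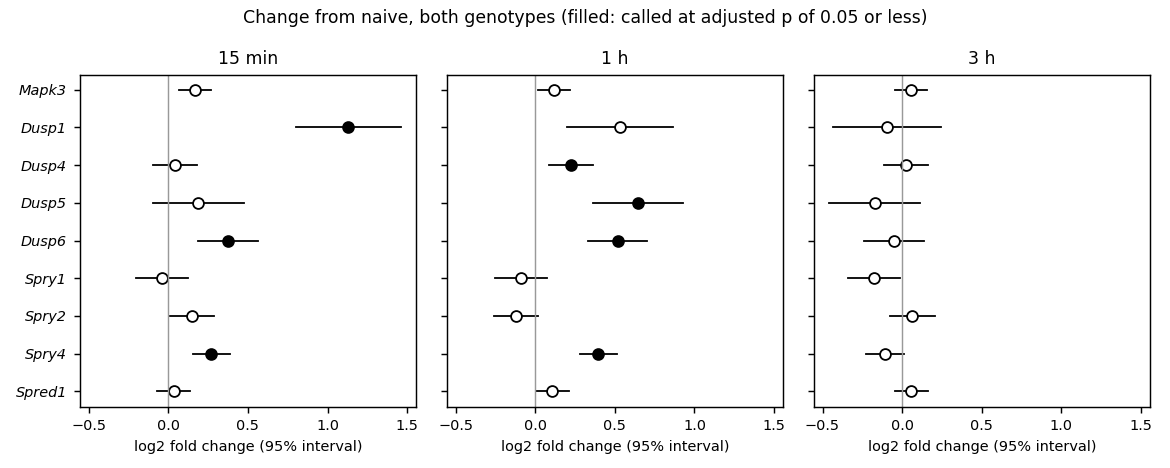
Log2 fold change from naive (horizontal axis, 1 panel per time point) for each of the 9 genes (vertical axis), averaged over WT and Tob-KO, with 95% intervals from the 24-library fit and filled points for genes called. Filled points are Dusp1, Dusp6 and Spry4 at 15 min and Dusp4, Dusp5, Dusp6 and Spry4 at 1 h, while no point is filled at 3 h.

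Read against all genes, 3 of the 9 members were called higher at 15 min, where 1.6% of the 19500 genes were, and 4 at 1 h, where 2.36% were. The median log2 fold change of the 9 was 0.17 at 15 min and 0.22 at 1 h, against 0.00 for all genes at both times. From 1 h to 3 h, 4 members were called lower, as were 1.98% of all genes. Between 15 min and 1 h no member was called, beside 0.41% of all genes. At 3 h against naive no gene at all was called (0%), although 1746 had an unadjusted p under 0.05 in edgeR. The members that did not overlap between the 6 naive libraries and the 6 of a later time were none at 15 min (1.33% of all genes), Dusp5, Dusp6 and Spry4 at 1 h (3.66%) and none at 3 h (0.641%).

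Some vessel markers also rose at 15 min. Of the 11 markers of endothelium and mural cells, 4 rose at 15 min (Cldn5, Flt1, Kdr and Pdgfrb, by 0.36 to 0.85 on the log2 scale) and the same 4 fell between 15 min and 1 h, while Dusp1 was also highest at 15 min. The score of those markers was then used as a covariate, a choice made after its level was seen. With it, 8 genes in all were called at 15 min, against 848 without it, and none of the 3 members kept its call. Their log2 fold changes were 1.11 for Dusp1 (adjusted p = 0.158), 0.54 for Dusp6 (adjusted p = 0.216) and 0.29 for Spry4 (adjusted p = 0.376). Without the covariate they were 1.13, 0.37 and 0.27. The summed markers did not overlap between naive libraries (236.0 to 317.1 CPM) and 15 min libraries (321.6 to 440.3 CPM). This fit can therefore hardly separate the covariate from the step to 15 min, and nothing is concluded from its estimates there. At 1 h all 4 members kept their calls under the same covariate. The choroid plexus score, low in the WT 15 min libraries, as a covariate kept the 3 calls at 15 min and the 4 at 1 h, and added Mapk3 at 15 min and Dusp1 at 1 h. Of 7 astrocyte markers, Aqp4 and Gja1 were called higher at both 15 min and 1 h. The median log2 fold change of the 7 was only 0.07 at 15 min and 0.00 at 1 h, and in Tob-KO alone 1 was called lower at 15 min. No marker of excitatory neurons, oligodendrocytes or microglia was called in these contrasts from naive to 15 min or 1 h. The part of these cell types in the members' changes was not tested further.

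Within each genotype the same fit had 3 libraries a group, and fewer members passed. In WT no member was called at 15 min (0.0462% of all genes were called), at 1 h (0.185%) or at 3 h (0%), and the nearest to the threshold was Spry4 at 1 h (log2 fold change 0.36, SE 0.079, adjusted p = 0.0726). In Tob-KO 1 member was called higher at 15 min (0.836% of genes), namely Dusp1, 2.35-fold (log2 fold change 1.23, SE 0.23, adjusted p = 0.0101). At 1 h in Tob-KO 3 members were called higher (0.421% of genes), namely Dusp1 (0.94, SE 0.23, adjusted p = 0.0487), Dusp6 (0.60, SE 0.13, adjusted p = 0.0311) and Spry4 (0.43, SE 0.080, adjusted p = 0.0171). This count fell to between 0 and 2 when 1 of the 6 libraries was left out, and it was 0 without Tob-KO naive replicate 1 or Tob-KO 1 h replicate 2 and 1 without Tob-KO naive replicate 2 or Tob-KO 1 h replicate 1 or 3. By gene, the call at 1 h was lost in all 6 of these fits for Dusp6, in 5 for Dusp1 and in 2 for Spry4. No member was called in Tob-KO at 3 h (0%).

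A call in Tob-KO that WT lacks is not a difference between genotypes, and the test of that difference called none. In the interaction of genotype and time, edgeR called 0 members and 0% of all genes at each of the 3 times, where the unadjusted p was under 0.05 for 939, 809 and 924 genes, respectively. The largest interaction among the members was that of Dusp1 at 1 h. There its change from naive was 0.13 in WT (SE 0.22) and 0.94 in Tob-KO, a difference of 0.81 (SE 0.32, unadjusted p = 0.0193, adjusted p = 0.999). The 95% interval of that difference, 0.15 to 1.47, leaves its size poorly fixed.

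Between genotypes, Spry4 was the 1 member called. Over the 4 time points together its mean level was 20.3 CPM ± 2.90 in WT and 17.4 CPM ± 3.02 in Tob-KO (SD, n = 12), a log2 difference of -0.23 (SE 0.040, 95% interval -0.31 to -0.15, adjusted p = 0.00968). The libraries of the genotypes did not overlap in naive mice (15.2 to 16.1 CPM in Tob-KO, 17.8 to 18.9 in WT) nor at 3 h (13.6 to 14.5 against 16.3 to 18.0). They overlapped at 15 min and 1 h. Of all genes, 11.4% did not overlap in naive mice and 12.1% at 3 h. By time point the log2 difference was -0.21 (SE 0.073) in naive mice, -0.27 (SE 0.10) at 15 min, -0.14 (SE 0.074) at 1 h and -0.30 (SE 0.074) at 3 h. The call held in each of the 24 fits that left out 1 library and under the 6 other settings run, the choroid plexus score as a covariate among them, with adjusted p up to 0.0262. In this comparison 1 member and 0.138% of all genes were called lower in Tob-KO.

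For the other members the difference over all times was not called. Dusp1 stood at -0.25 (SE 0.11, adjusted p = 0.337), Dusp5 at -0.13 (SE 0.096, adjusted p = 0.572), Dusp6 at -0.13 (SE 0.063, adjusted p = 0.392) and Spred1 at -0.09 (SE 0.035, adjusted p = 0.262). The 95% intervals were -0.10 to 0.04 for Mapk3, -0.08 to 0.11 for Dusp4, -0.11 to 0.09 for Spry2 and -0.02 to 0.21 for Spry1, so that differences within these bounds are not excluded.

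At single time points, edgeR's exact test with the study's limits (adjusted and raw p of 0.05 or less and a fold of 2 or more) called no member. It called 0.0218% of genes in naive mice, 0.555% at 15 min, 0.033% at 1 h and 0.0274% at 3 h, and no member reached a fold of 2. For Dusp1 the log2 difference was -0.59 in naive mice (SE 0.16, adjusted p = 0.590), -0.39 at 15 min (SE 0.27, adjusted p = 0.866), 0.22 at 1 h (SE 0.087, adjusted p = 0.839) and -0.24 at 3 h (SE 0.15). Libraries of the genotypes did not overlap for Dusp1, Dusp6 and Spry4 in naive mice (11.4% of all genes), for no member at 15 min (13.3%), for Dusp1 and Dusp5 at 1 h (11.5%) and for Spry4 and Spred1 at 3 h (12.1%). The summed choroid plexus markers were at 200.2 to 237.6 CPM in WT and 287.1 to 5369 in Tob-KO at 15 min, and at 261.1 to 3917 and 3416 to 5120 at 1 h. Of these 15 markers, 14 were called higher in Tob-KO at 15 min and none at the other times, and their part in single time points was not tested.

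**Figure D3:**
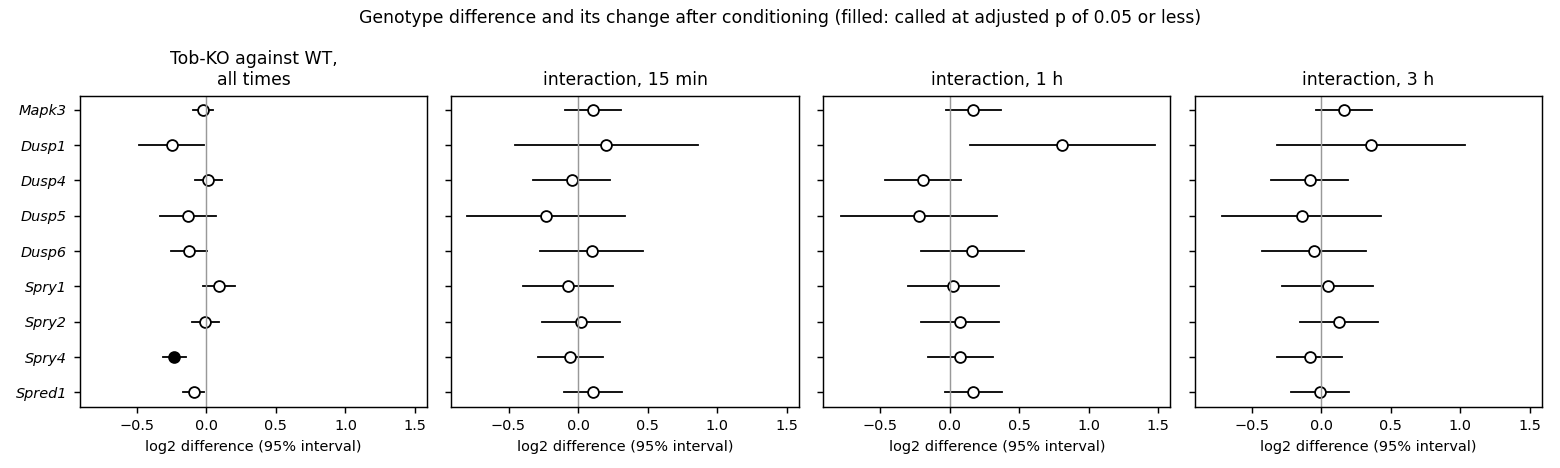
Log2 difference of Tob-KO against WT over all 4 time points (left) and the interaction, the change from naive in Tob-KO less that in WT, at each later time (right), for each of the 9 genes with 95% intervals and filled points for genes called. Spry4 alone is filled, at -0.23 in the left panel, and the interval of Dusp1 at 1 h, 0.15 to 1.47, lies above 0 without a call.

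Genes along the rest of the pathway were counted from lists. A list of immediate early genes, drawn up as targets of ERK signalling, moved with the inhibitors. Whether ERK induced any of them here was not tested. Of 16 such genes, 10 rose at 15 min, 10 rose at 1 h and 10 fell from 1 h to 3 h, with a median log2 fold change of 0.71, 0.68 and -0.63, against 0.00 for all genes in each. At 15 min the smallest p belonged to Npas4 (1.62, SE 0.15), Fos (2.13, SE 0.20) and Egr2 (2.70, SE 0.28), which encode transcription factors of the activity response. Fos and Egr2 were still up at 1 h, by 1.67 and 2.34, while Npas4 fell by 1.32 between 15 min and 1 h (adjusted p = 0.000161).

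None of 13 cascade kinases and scaffolds, the Raf and MEK genes among them, was called in any of the time contrasts averaged over genotypes. Of 14 Ras proteins, exchange factors and adaptors, the exchange factor genes Sos1 (0.18, SE 0.037, adjusted p = 0.00805) and Sos2 (0.15, SE 0.042, adjusted p = 0.0326) rose at 1 h and fell again by 3 h. Of 7 Ras GTPase-activating proteins, which switch Ras off, 1 was called higher and 1 lower at 15 min, and likewise at 1 h. The gene called higher was Rasa3 at 15 min and Rasa1 at 1 h. The median log2 fold change of the 7 was 0.00 and 0.04. Of 11 receptors upstream of ERK, Egfr alone was called, higher by 0.27 at 15 min (adjusted p = 0.0202) and by 0.26 at 1 h. Of 15 kinases and transcription factors downstream of ERK, Srf (0.19), Creb1 (0.17) and Mknk2 (0.17) rose at 1 h.

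The 16 other MAP kinase phosphatases and receptor feedback inhibitors, of which 15 passed the filter, held 1 gene that both rose and fell as the members did. Errfi1, a feedback inhibitor of the EGF receptor, rose at 1 h (0.41, SE 0.076, adjusted p = 0.00376) and fell from 1 h to 3 h (-0.52, SE 0.076, adjusted p = 0.000916), and Il17rd, which encodes the FGF-receptor inhibitor Sef, fell over the same interval (-0.38, SE 0.097, adjusted p = 0.0304). Spred3 fell at 15 min (-0.20, SE 0.039, adjusted p = 0.00718) and at 1 h (-0.15, SE 0.039, adjusted p = 0.0303). The median log2 fold change of the 15 was 0.03 at 15 min and 0.05 at 1 h. No gene of any of these pathway lists was called between genotypes over all times. The median log2 difference of Tob-KO against WT was -0.26 for the list of immediate early genes, against 0.00 for all genes. For the other pathway lists it was between -0.04 and 0.04. The shift of a list as a whole was not tested.

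Across the 24 libraries, Dusp6 and Spry4 had the highest correlation of the members. Pearson's r of log2 CPM was 0.87 for Dusp6 and Spry4, 0.81 for Dusp5 and Dusp6, 0.75 for Dusp1 and Spry4, 0.74 for Dusp5 and Spry4, 0.72 for Dusp1 and Dusp6 and 0.71 for Dusp4 and Dusp5. Dusp1 and Dusp5, whose means were highest at different times, had r = 0.42, Dusp4 and Spry4 had 0.44, and Dusp1 and Dusp4 had 0.18. Deviations from the group means still correlated for Dusp1 and Spry4 (0.68), Dusp5 and Dusp6 (0.67) and Dusp6 and Spry4 (0.54). For Spry1, r ran from -0.42 with Spred1 to 0.12 with Dusp6. These values describe libraries that share time point, genotype and tissue composition, and no test was made of them.

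**Figure D4:**
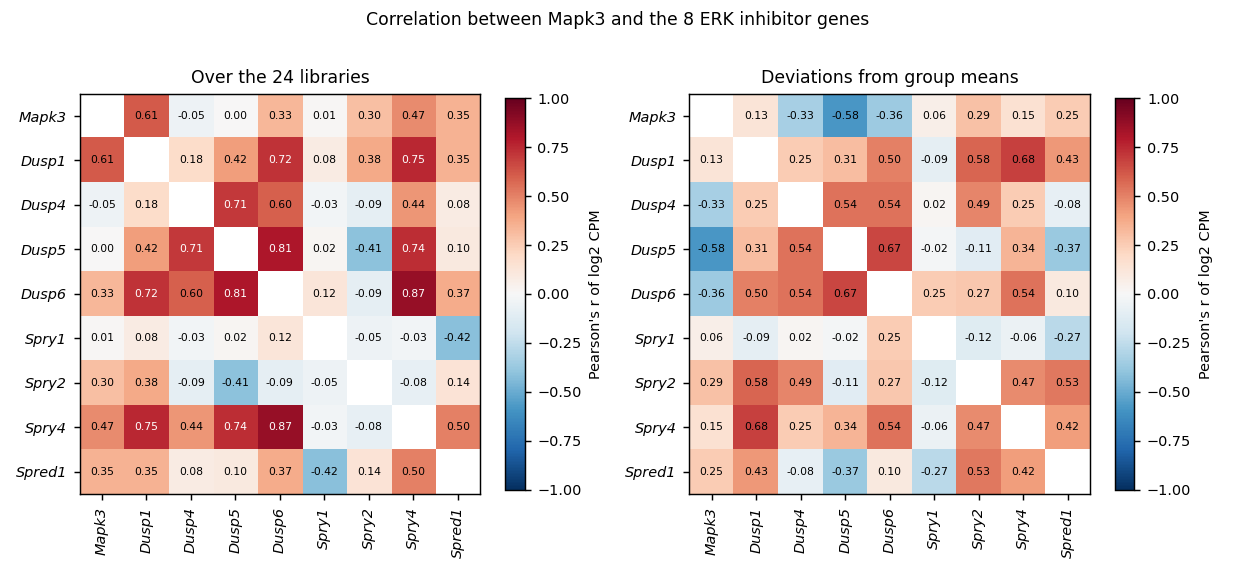
Pearson's r of log2 CPM for each pair of the 9 genes, over the 24 libraries (left) and after subtraction of the 8 group means (right), with colour from -1 (blue) to 1 (red). Dusp1, Dusp4, Dusp5, Dusp6 and Spry4 hold the highest values on the left (up to 0.87), where Dusp1 with Dusp4 (0.18), Dusp1 with Dusp5 (0.42) and Dusp4 with Spry4 (0.44) are paler.

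Among 14449 genes with a mean of at least 1 CPM, those most like each called member over the 24 libraries were named. Closest to Dusp1 were Cyr61 (r = 0.947), Ier2 (0.923) and Fos (0.918). Closest to Dusp6 were Arc (0.930), Nr4a1 (0.927) and Mcl1 (0.916), and closest to Spry4 were Arc (0.894), Gadd45b (0.892) and Nr4a1 (0.888). For Dusp5 they were Arl5b (0.918), Nab2 (0.908) and Mcl1 (0.905), and for Dusp4 they included Nab2 (0.788) and Arl5b (0.752). Dusp5 and Dusp4 thus shared Arl5b and Nab2, and Dusp6 and Spry4 shared Arc and Nr4a1, while the 3 genes nearest to Dusp1 were not among the 3 nearest to another called member.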

How the data were processed

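The authors purified poly(A) RNA, made directional libraries, mapped 150-base paired reads to GRCm38 with STAR 2.6.1d and counted them on genes with HTSeq 0.9.0. They deposited raw counts, whole numbers per gene and library. Annotation and strand setting are not given in the sources used here. The names of the count columns carry the word markdup, but whether reads marked as duplicates were counted is not given. Reads may thus exceed molecules. Levels are TMM-scaled CPM (edgeR 4.0.16, R 4.3.3), and per-kilobase levels use GENCODE exon lengths.

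Genes with at least 0.2 CPM in 2 libraries were tested. One edgeR quasi-likelihood fit of 8 group means over 24 libraries gave the time, interaction and overall genotype contrasts. The authors' exact test over 6 libraries served single time points, with SE from a quasi-likelihood fit. P-values were adjusted by Benjamini-Hochberg over all genes, and intervals are 95%. The tests were checked on simulated counts. Replicate numbers did not pair the mice, so no block was used. Other settings were RLE scaling, no filter, a replicate block, marker scores as covariates, only the groups compared, DESeq2 1.42.0 and leaving out each library. Pathway genes named are at most 3 per list, those with the smallest p, and likeness is named for members called in a time contrast. A few genes that these rules would name are not reported here. The members and lists were chosen with earlier results of these data known.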

Additional observations from a re-analysis of the deposited data

How the results depend on the processing

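Of 16 member calls, recomputed in 291 alternatives, none changed direction and 245 kept the call. Those of Dusp5, Dusp6 and Spry4 at 1 h and from 1 h to 3 h, averaged over genotypes, and that of Spry4 between genotypes kept it under every setting run. The replicate numbers did not pair the mice. A replicate block left every count of called members as it was (4 at 1 h), but there Dusp1 was called and Dusp4 was not (adjusted p = 0.0519). Dusp1 at 1 h, not called over both genotypes, was also called without the low-count filter, with the choroid plexus score, with only the groups compared and with DESeq2, and Mapk3 at 15 min with RLE scaling, without the filter, with the choroid plexus score and with DESeq2. Counts that moved by more than 1.5 times follow, and their causes were not tested. From 15 min to 1 h, where 0 members were called, 2 were without the low-count filter and 3 with DESeq2, and leaving out 1 library gave 0 to 1. From naive to 15 min over both genotypes, 3 became 1 with only the groups compared and 0 with the endothelial score, which was added after seeing the data. In WT, 0 became 1 at 15 min without the filter and 1 with DESeq2. In WT at 1 h, 0 became 1 without the filter, 1 with either the choroid plexus or the endothelial score, and 2 with only the groups compared or with DESeq2. In Tob-KO at 15 min, 1 became 2 without the filter, 3 with DESeq2 and 0 with only the groups compared or with the endothelial score. In Tob-KO at 1 h, 3 became 0 to 2 without 1 library. The 3 called by DESeq2 in Tob-KO at 15 min were Mapk3, Dusp1 and Dusp6. Every member had at least 268 reads in each library, and a group held 3 mice.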
